A study of Coprinopsis cinerea with 29 samples.

Results

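The stipe and the cap of the mushroom Coprinopsis cinerea were compared for how their transcript levels changed when a young fruiting body became a mature one. The comparison is a difference of differences, (mature minus young stipe) minus (mature minus young cap), and it used 12 of the 29 libraries of the series, 3 in each of 4 groups chosen by their sample titles. These were the mature stipe (CC_FB_S), the young stipe (CC_YFB_S), the mature cap together with its lamellae (CC_FB_CL) and the young cap without lamellae (CC_YFB_C). Mature stands here for what the labels call fruiting body, as against young fruiting body. The 3 libraries of young lamellae (CC_YFB_L) served to mark gene models whose cap change could come from the lamellae alone. Every group is from the single strain 326 (A43mut B43mut pab 1-1), whose mutated mating-type factors let it fruit without a mate. Colonies grew for 5 days in darkness at 37 °C, and fruiting followed at 25 °C with light for 12 h and darkness for 12 h of each day. The labels do not say how many fruiting bodies went into a library, nor which libraries came from the same culture, so p-values measure the spread between these libraries, which may be technical.

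In this fungus the stipe is the stalk that lifts the cap, and it lengthens rapidly late in development, mainly by elongation of existing cells. The cap carries the lamellae, the gills on which basidia complete meiosis and form spores, and at maturity the cap opens and digests itself while the spores are shed. The deposited files identify gene models by number and pair them with no name, product, sequence or genome position. None of the 14242 identifiers matched the reference gene table of another strain (0 matched), so gene models are described by number and no function is given. For the same reason the tissues could not be checked against marker genes. In bulk tissue a change in the share of a cell type and a change of RNA per cell cannot be told apart.

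The 12 libraries held 14445914 to 28417907 reads counted on gene models, of which 99.76% to 99.87% fell on 1 model only, and 11990 of 14242 models had enough reads to be tested, leaving 2252 out. Levels are given as CPM, reads per 1000000 reads of a library total scaled by TMM (trimmed mean of M-values), and levels of different gene models are set side by side only as RPKM, which also divides by length in kilobases. A gene model was called where the edgeR quasi-likelihood adjusted p was under 0.05 and the change at least 2-fold. Replicate 3 of the young cap stood apart from its replicates 1 and 2, at a Pearson r across gene models of 0.926 to 0.928 with them, against 0.988 between those. Replicate 1 of the young lamellae stood apart likewise, at 0.867 to 0.885 against 0.991. The other groups ran from 0.961 to 0.985. Values without these 2 libraries are given beside the main counts and beside the named gene models whose values or calls they moved.

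Between young and mature libraries the 2 parts changed differently in 4498 of 11990 gene models, or 37.5% of those tested. The cap was sampled with lamellae only when mature, so maturation and dissection cannot be told apart in it. With young lamellae in place of the young cap, 2354 of the 4498 (52.3%) were called with the same sign. The stipe change exceeded the cap change in 2316 of the 4498 (19.3% of those tested) and fell short of it in 2182 (18.2%). Its median size was 2.30 on the log2 scale among those called, against 1.10 among all tested, and it was at least 4-fold in 2718 (22.7% of those tested, 11.3% positive and 11.4% negative) and at least 8-fold in 1462. Leaving out each library in turn, 3256 of the 4498 were called with the same sign in all 12 fits. Without CC_YFB_C replicate 3 4255 were called, and without both that library and CC_YFB_L replicate 1 4737 were. Scaling by library size alone moved the median gene by 0.05 on the log2 scale and gave 2249 positive and 1889 negative calls.

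The rule here asked for a call in all 12 of these fits and a call against young lamellae. It also asked for at least 10 reads in every group and 10 RPKM in the highest. In the 2 largest positive differences that met it, the mature stipe was far above the young stipe. In both, the mean of the young cap lay above that of the mature cap, in 416148 mainly through replicate 3 of the young cap. Gene model 416148, of 1267 bases, had 4605, 5414 and 3628 CPM in the mature stipe and 3.22, 2.89 and 5.01 CPM in the young stipe. In the cap it had 118, 251 and 120.4 CPM when mature and 99.6, 244 and 9779 CPM when young. The stipe groups were far apart, while the cap groups overlapped and replicate 3 of the young cap stood far above the rest. Its difference of differences was 14.63 ± 2.91 log2 units (SE, with an edgeR adjusted p = 2.99e-04), and 10.34 without CC_YFB_C replicate 3. The rise in the stipe was called, and the fall in the cap was called only with that library and with all 3 of the mature cap. Its gap counted as lost, not reversed, without any 1 of CC_FB_CL replicates 1 to 3 or CC_FB_S replicate 2. Gene model 440784 (1253 bases) had 14862, 8562 and 9547 CPM in the mature stipe and 3.85, 5.69 and 42.2 CPM in the young stipe. It had 89.2, 57.6 and 99.3 CPM in the mature cap and 361, 1126 and 146 CPM in the young cap. Neither the stipe groups nor the cap groups overlapped. Its difference was 12.05 ± 1.64 log2 units (SE, with an edgeR adjusted p = 3.06e-06), with 10.95 without CC_YFB_C replicate 2 and 13.90 without CC_YFB_S replicate 3, and its fall in the cap was not called without CC_YFB_C replicate 2, CC_FB_CL replicate 1 or CC_FB_CL replicate 2. Both carry the mark for lamellae described below, and both were called as well with young lamellae as the baseline of the cap, 416148 not without CC_YFB_L replicate 1.

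In the 2 largest negative differences by the same rule, the stipe fell and the cap rose. Gene model 439300 (610 bases) had 0.63, 2.7 and 0.72 CPM in the mature stipe and 621, 697 and 815 CPM in the young stipe. In the mature cap it had 49.8, 54.5 and 41.6 CPM, against 2.95, 5.77 and 3.25 CPM in the young cap. It fell in the stipe and rose in the cap, with no overlap in either part. The difference was -12.67 ± 0.80 log2 units (SE, with an edgeR adjusted p = 1.48e-10), and -13.64 without CC_FB_S replicate 2. Gene model 411623 (1229 bases) had 0.788, 0.29 and 1.04 CPM in the mature stipe and 9.66, 8.99 and 3.83 CPM in the young stipe. It had 176, 375 and 382 CPM in the mature cap and 0.262, 0 and 1.5 CPM in the young cap, where replicate 2 held no read, and 57.3 CPM in replicate 1 of young lamellae. Most of its difference lay in the cap, and the difference was -12.36 ± 2.09 log2 units (SE, with an edgeR adjusted p = 4.97e-05), or -14.43 without CC_YFB_C replicate 3. Its fall in the stipe was not called without any 1 of CC_FB_S replicates 1 to 3 or CC_YFB_S replicates 1 and 2. Its gap counted as gained, not reversed, without CC_YFB_C replicate 1 or 2 or CC_YFB_S replicate 1 or 2.

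Each part changed in about as many gene models as the other. The stipe changed in 5589 of 11990 (46.6%), 2768 higher (23.1%) and 2821 lower (23.5%) when mature. The cap changed in 5768 (48.1%), 2772 higher (23.1%) and 2996 lower (25%), the mature cap being sampled with its lamellae. These splits rest on the scaling: with library size alone the median gene moved by -0.66 in the stipe and -0.71 in the cap, the stipe then had 1671 higher and 4507 lower, and the cap 1670 higher and 4873 lower. Both parts rose in 1228 gene models (10.2% of those tested) and both fell in 1433 (12%). The stipe rose and the cap fell in 247 (2.06%), and the stipe fell and the cap rose in 311 (2.59%). Across gene models, which are not independent replicates, the 2 changes correlated at r = 0.435 (Spearman 0.431, n = 11990). The 2 changes share no library, but they share the scaling and the fit.

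Of the 4498 gene models with a called difference, 777 rose and 580 fell in the stipe alone. In the cap alone 789 rose and 776 fell, where alone means that the other part was not called. Over all tested, 1293 rose and 1077 fell in the stipe alone, of which 60.1% and 53.9% were among the 4498. In the cap alone 1233 rose and 1316 fell over all tested, of which 64% and 59% were. All 247 and 311 opposite movers were among the 4498. Opposite calls of at least 2-fold make a difference of at least 4-fold, so this was close to fixed by the rule. In 342 both parts rose and in 311 both fell, by unequal amounts, or 27.9% and 21.7% of such gene models over all tested. In 365 neither part was called by itself, of 3852 such gene models over all tested (9.48%). A part that was not called is not thereby shown to be steady.

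The difference of differences is also the mature gap between stipe and cap minus the young gap, so each called gene model was placed by which of the 2 gaps was called. The parts diverged more often than they converged. In 2077 of 4498 (46.2%) the gap was called only when mature (1917, gained) or was larger when mature (160, widened). In 1283 (28.5%) the gap was called only when young (1163, lost) or was smaller when mature (120, narrowed). In 588 (13.1%) both gaps were called with opposite signs, and in 550 (12.2%) neither was called. Estimates of the 2 gaps had opposite signs more widely, in 3089 of the 4498, among them 766 of the lost gaps, 1185 of the gained gaps and all 550 with neither gap called. Among all tested gene models the gap was called in 4751 (39.6%) when mature and in 3912 (32.6%) when young. The mature stipe was higher than the mature cap in 2316 of these (19.3%) and lower in 2435 (20.3%), and the young stipe was higher than the young cap in 1813 (15.1%) and lower in 2099 (17.5%). Without CC_YFB_C replicate 3 the young gap was called in 3278 and the gap was reversed in 507, and without CC_YFB_L replicate 1 in 4163 and 653. With library size alone the splits were 3678 and 1769 when mature (median shift 0.45) and 2976 and 1430 when young (median shift 0.40).

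**Figure D1:**
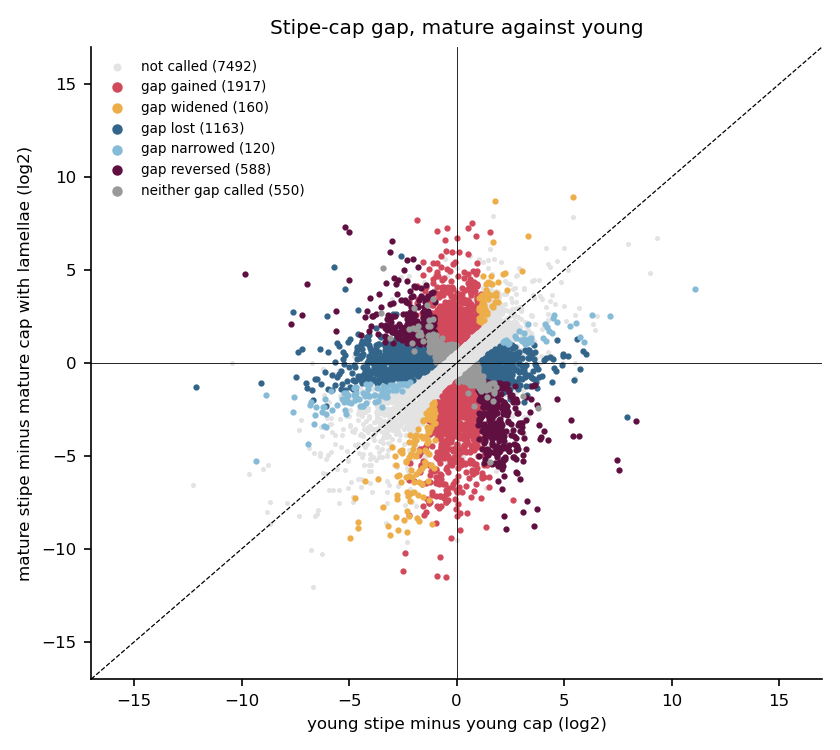
Each point is a gene model tested (11990), with the young gap, young stipe minus young cap, on the x axis and the mature gap, mature stipe minus mature cap with lamellae, on the y axis, both as fitted log2 differences, and the dashed line marks equal gaps. Colours give the class and its count, and the 1917 models with a gained gap lie along the vertical axis, the 1163 with a lost gap along the horizontal one and the 588 with a reversed gap in the upper left and lower right.

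More gene models diverged than converged under each of 30 settings that keep the young cap as baseline, the reported one included, by a factor of 1.4 to 2.04. With the mean of young cap and young lamellae as baseline for the difference of differences, the counts were 2103 diverged and 891 converged. The young gap behind these classes was still taken from the young cap alone, so the counts do not show divergence from a mixed baseline. Without CC_YFB_C replicate 3 the counts were 2165 diverged and 1063 converged, and without that library and CC_YFB_L replicate 1 they were 2349 and 1207. The classes of single gene models were less firm than the counts. Over the 12 fits that leave out a library, 1116 of 1917 gained, 605 of 1163 lost, 308 of 588 reversed, 64 of 160 widened and 44 of 120 narrowed gaps stayed in their class in every fit, as did 100 of 550 with neither gap called, or 2237 of 4498 in all. Within the lost class the mature gap was estimated at under 2-fold in 1051 of 1163, and within the gained class the young gap was under 2-fold in 1756 of 1917. By the size of the 2 estimates alone, with no call of either gap, the mature gap was larger in 2746 of the 4498 and smaller in 1752.

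Whole libraries showed the difference less clearly than the counts of gene models. The median absolute difference in log2 CPM between a stipe and a cap library was 0.950 ± 0.0170 when mature and 0.854 ± 0.166 when young (SD over 9 pairs each, which share libraries). Pairs ran from 0.932 to 0.978 when mature and from 0.670 to 1.11 when young, so the ranges overlap. The overlap came from replicate 3 of the young cap, whose 3 pairs with the young stipe lay at 1.03 to 1.11, against 0.670 to 0.840 for the other 6. The mean of the mature pairs exceeded that of the young ones by 0.0963, by 0.199 without CC_YFB_C replicate 3, and by 0.0356 and 0.0541 without its replicates 1 and 2. The mature cap was sampled with lamellae and the young cap without. Pairs of young stipe and young lamellae lay at 0.959 ± 0.0974, from 0.842 to 1.11, on average no nearer than the mature pairs. Mature cap and young lamellae lay 1.28 ± 0.0832 apart (SD over 9 pairs each). The gain in distance thus held against the young cap and not against young lamellae. Replicates of a group lay 0.323 apart on average in the mature stipe, 0.396 in the young stipe, 0.371 in the mature cap and 0.547 in the young cap. Mature and young libraries of a part lay 1.08 ± 0.0494 apart for the stipe and 1.16 ± 0.0440 for the cap, above all pairs of mature stipe and mature cap. Both the stipe pairs, at 1.02 to 1.16, and the cap pairs, at 1.08 to 1.22, overlapped those of young stipe and young cap with CC_YFB_C replicate 3. The mature stipe lay as far from the young cap (1.08 ± 0.0334) as from the young stipe, while the mature cap lay 1.28 ± 0.0434 from the young stipe (SD over 9 pairs each).

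**Figure D2:**
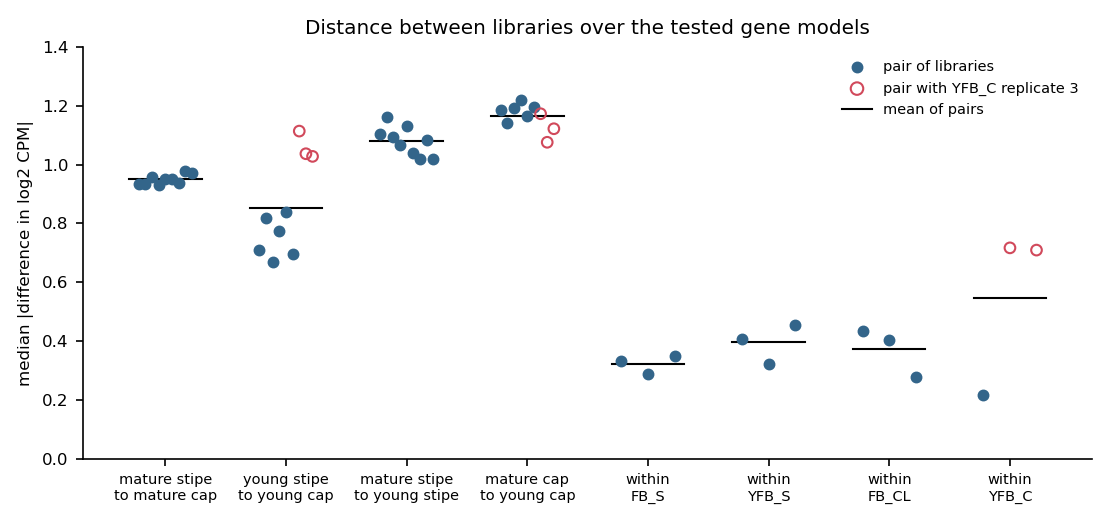
Each point is a pair of libraries and its height is the median absolute difference in log2 CPM over the 11990 gene models tested, with a line at the mean of the pairs. The mature stipe and mature cap lay at 0.932 to 0.978 in every pair, while pairs of young stipe and young cap spread from 0.670 to 1.11, the 3 highest being those with CC_YFB_C replicate 3 (open circles).

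**Figure D3:**
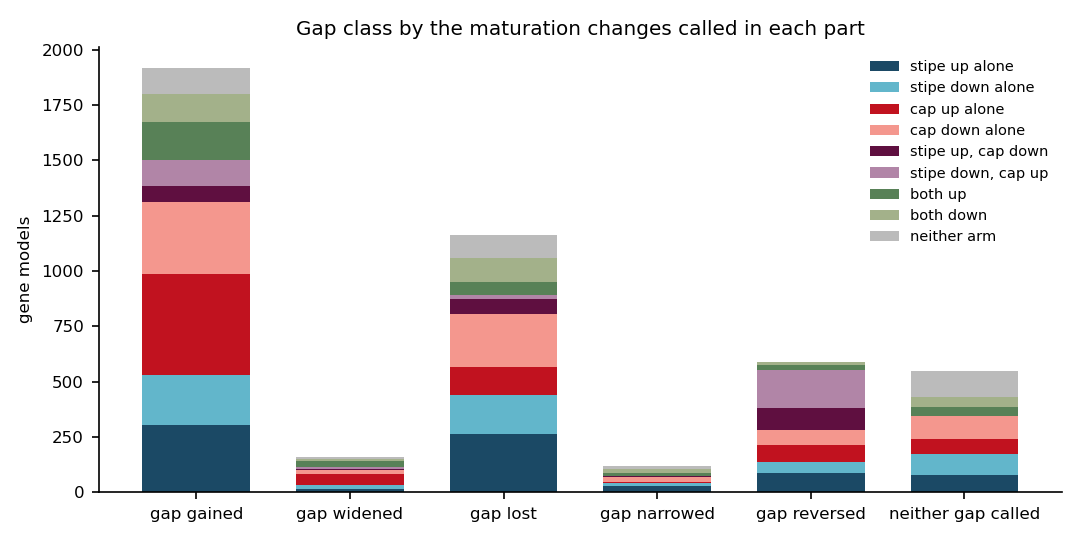
Bars count the gene models of each gap class among the 4498 with a called difference of differences, stacked by which part was called higher (up) or lower (down) when mature. The largest share of the 1917 gained gaps is the 456 in which the cap alone rose, and 170 and 99 of the 588 reversed gaps are opposite movers.

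Gained gaps opened from either side. In 898 the stipe was higher than the cap when mature, and in 1019 it was lower. The cap alone was called in 326 and 456 of these, by a fall and by a rise, and the stipe alone in 303 and 229, by a rise and by a fall. Gained gaps where the mature stipe was higher took 11.1% ± 0.661 of the reads of the mature stipe and 7.02% ± 0.654 of the young stipe, but 1.92% ± 0.108 of the mature and 6.09% ± 0.483 of the young cap (SD, n = 3 each). Those where the mature cap was higher took 17.3% ± 0.400 of the reads of the mature cap and 4.74% ± 0.437 of the young cap, against 2.39% ± 0.0608 in the mature and 6.90% ± 0.285 in the young stipe (SD, n = 3 each). These shares describe sets chosen on the same libraries and test nothing further.

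Among gained gaps on the stipe side, gene model 496246 (3615 bases) had 3201, 2755 and 2878 CPM in the mature stipe and 22.7, 51.8 and 73.8 CPM in the young stipe. It had 16.4, 23.5 and 18.2 CPM in the mature cap and 47.6, 52.7 and 98.8 CPM in the young cap. It rose in the stipe and fell in the cap from young levels that overlapped, by a difference of 7.67 ± 0.65 log2 units (SE, with an edgeR adjusted p = 3.44e-09). Gene model 445173 (409 bases) had 139, 119 and 149.7 CPM in the mature stipe and 2.29, 3.22 and 1.83 CPM in the young stipe. It had 1.79, 0.955 and 1.43 CPM in the mature cap and 2.62, 3.51 and 4.56 CPM in the young cap. The mature stipe alone stood out, with a difference of 7.17 ± 0.66 log2 units (SE, with an edgeR adjusted p = 1.01e-08), and the smaller fall in the cap was not called without CC_YFB_C replicate 3 or CC_FB_CL replicate 2.

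On the cap side, gene model 496007 (549 bases) had 0.473, 2.03 and 0.96 CPM in the mature stipe and 6.84, 6.9 and 2.71 CPM in the young stipe. It had 2754, 4335 and 2733 CPM in the mature cap and 0.785, 0.468 and 21.8 CPM in the young cap, with 411, 0.203 and 0.317 CPM in young lamellae. All 3 mature cap libraries were far above every other, and the young cap and young lamellae each had 1 high library, replicate 3 and replicate 1. The difference was -11.00 ± 2.66 log2 units (SE, with an edgeR adjusted p = 0.00197), with -14.60 without CC_YFB_C replicate 3 and -11.66 without CC_FB_S replicate 2, and it was not called against young lamellae without CC_FB_S replicate 1 or 3. Gene model 428438 (1233 bases) had 1.18, 1.35 and 4.48 CPM in the mature stipe and 1.26, 0.746 and 2.36 CPM in the young stipe. In the mature cap it had 678, 1215 and 1325 CPM, and it had 0.654, 1.01 and 0.0624 CPM in the young cap. Only the change in the cap was called, and the difference was -10.18 ± 1.01 log2 units (SE, with an edgeR adjusted p = 3.10e-08), or -10.83 without CC_YFB_C replicate 2 and -11.07 without CC_FB_S replicate 3.

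Lost gaps ran in both directions. In 705 the young cap had been above the young stipe and in 458 below it. In the first set the stipe alone rose in 264 and the cap alone fell in 238, and in the second the stipe alone fell in 176 and the cap alone rose in 129. The first set took 13.1% ± 0.615 of the reads of the mature stipe and 3.76% ± 0.820 of those of the young stipe, with 7.25% ± 0.615 for the mature and 18.5% ± 1.33 for the young cap (SD, n = 3 each). Its 10 most abundant models made up 7.23% of the reads of the mature stipe and 7.82% of those of the young cap.

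Gene model 362776 (582 bases) had 10237, 16905 and 10974 CPM in the mature stipe and 1.49, 0.559 and 3.95 CPM in the young stipe. It had 2526, 1592 and 1597 CPM in the mature cap and 92.6, 153 and 902 CPM in the young cap. Its mean of 21830.4 RPKM in the mature stipe was the highest per length of the gene models named here. It rose in the stipe. The cap groups did not overlap either, but their difference was not called. The mature stipe also lay above the mature cap in every library, by an estimated 2.74 log2 units that did not pass (edgeR adjusted p = 0.141), so the gap lost its call but was not small. Its difference was 10.33 ± 2.41 log2 units (SE, with an edgeR adjusted p = 0.00148), with 8.69 without CC_YFB_C replicate 3 and 11.25 without CC_YFB_S replicate 3, and without CC_YFB_L replicate 1, which held 484 CPM, its gap was called as reversed and its difference was no longer called against lamellae. Gene model 482759 (1395 bases) had 3.39, 3.28 and 4.16 CPM in the mature stipe and 0.564, 1.26 and 1 CPM in the young stipe. It had 0.687, 0.608 and 0.597 CPM in the mature cap and 76.6, 97.1 and 8.24 CPM in the young cap, which alone was high. It fell in the cap, with a difference of 8.53 ± 1.51 log2 units (SE, with an edgeR adjusted p = 8.51e-05). Its mature gap was estimated at 2.51 log2 units, opposite to the young gap, and did not pass (edgeR adjusted p = 0.0614), so both 362776 and 482759 fall outside the 1051 lost gaps under 2-fold. Against young lamellae it kept its call in 7 of the 15 fits that leave out a library, and without CC_YFB_C replicate 3 its gap was called as reversed.

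Both named models whose gap closed from the stipe side fell in the stipe alone. Gene model 379683 (342 bases) had 0.394, 0.483 and 1.12 CPM in the mature stipe and 42, 37.9 and 29.5 CPM in the young stipe. It had 0.962, 1.39 and 1.43 CPM in the mature cap and 0.72, 0.468 and 1.25 CPM in the young cap. Of these 4 groups only the young stipe was above 2 CPM, and the difference was -6.38 ± 0.86 log2 units (SE, with an edgeR adjusted p = 2.81e-06), or -6.99 without CC_FB_S replicate 3. Gene model 470703 (507 bases) had 0.788, 1.35 and 1.6 CPM in the mature stipe and 53.2, 52.8 and 28.7 CPM in the young stipe. It had 1.1, 1.04 and 0.478 CPM in the mature cap and 0.589, 0.858 and 0.624 CPM in the young cap. Its difference was -5.52 ± 1.23 log2 units (SE, with an edgeR adjusted p = 9.30e-04), and the other 3 groups overlapped.

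Reversed gaps were the class with the largest differences, at a median of 4.25 on the log2 scale against 2.25 for gained and 2.24 for lost gaps. A reversal needs 2 called gaps of opposite sign, so large differences follow from the rule. In 279 the stipe was lower than the cap when young and higher when mature, and in 309 the order was the opposite. The stipe rose and the cap fell in 99 of the first, and the stipe fell and the cap rose in 170 of the second. In 586 of the 588 the difference of differences was called in each of the 12 fits that leave out a library. The first set took 9.75% ± 0.461 of the reads of the mature and 1.36% ± 0.164 of the young stipe, with 1.00% ± 0.0709 for the mature and 4.63% ± 1.18 for the young cap (SD, n = 3 each).

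Gene model 223449 (2256 bases) had 1963, 1565 and 1622 CPM in the mature stipe and 8.17, 12.4 and 26.3 CPM in the young stipe. It had 94, 79.7 and 92 CPM in the mature cap and 376, 912 and 4593 CPM in the young cap, highest in replicate 3. The groups did not overlap within either part, and the difference was 11.25 ± 1.28 log2 units (SE, with an edgeR adjusted p = 2.67e-07), with 9.64 without CC_YFB_C replicate 3 and 11.85 without CC_YFB_S replicate 3. In young lamellae it had 273, 33.8 and 26.1 CPM, and without CC_YFB_L replicate 1 it met the mark for lamellae described below. Gene model 495429 (1566 bases) had 1531, 1586 and 1264 CPM in the mature stipe and 2.29, 3.45 and 2.71 CPM in the young stipe. It had 379, 331 and 299 CPM in the mature cap and 598, 620.5 and 552 CPM in the young cap. The 3 libraries of each group lay close together, the rise in the stipe was called and the fall in the cap was not. The difference was 9.83 ± 0.69 log2 units (SE, with an edgeR adjusted p = 3.78e-10). In young lamellae it had 5.7, 1.95 and 1.49 CPM, and with lamellae as the baseline the difference was 2.23 ± 0.60 log2 units (SE, with an edgeR adjusted p = 0.0047).

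Of the reversals with the mature cap high, gene model 546064 (492 bases) had 0.315, 0.0966 and 0.4 CPM in the mature stipe and 2.32, 1.17 and 1.18 CPM in the young stipe. It had 114, 142 and 162 CPM in the mature cap and 0.196, 0.234 and 0.499 CPM in the young cap. Of these 4 groups only the mature cap was above 3 CPM, while replicate 1 of young lamellae held 12.9 CPM, and the difference was -11.24 ± 1.37 log2 units (SE, with an edgeR adjusted p = 6.81e-07). The young gap behind the class was not called in any of the 12 fits that leave out a library, where the gap counted as gained (0 stayed reversed). The fall in its stipe was lost without CC_YFB_S replicate 1 or any 1 of CC_FB_S replicates 1 to 3. Gene model 358749 (414 bases) had 1.89, 3.38 and 7.6 CPM in the mature stipe and 11.2, 34.5 and 8.25 CPM in the young stipe. It had 897, 1174 and 1293 CPM in the mature cap and 0.524, 0.78 and 4.87 CPM in the young cap. All 3 mature cap libraries were far above the rest, and the difference was -11.13 ± 1.24 log2 units (SE, with an edgeR adjusted p = 1.98e-07), with -12.81, -10.25 and -11.84 without CC_YFB_C replicate 3, CC_YFB_S replicate 2 and CC_FB_S replicate 3. Its fall in the stipe was not called without CC_YFB_S replicate 2 or CC_FB_S replicate 1 or 2.

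**Figure D4:**
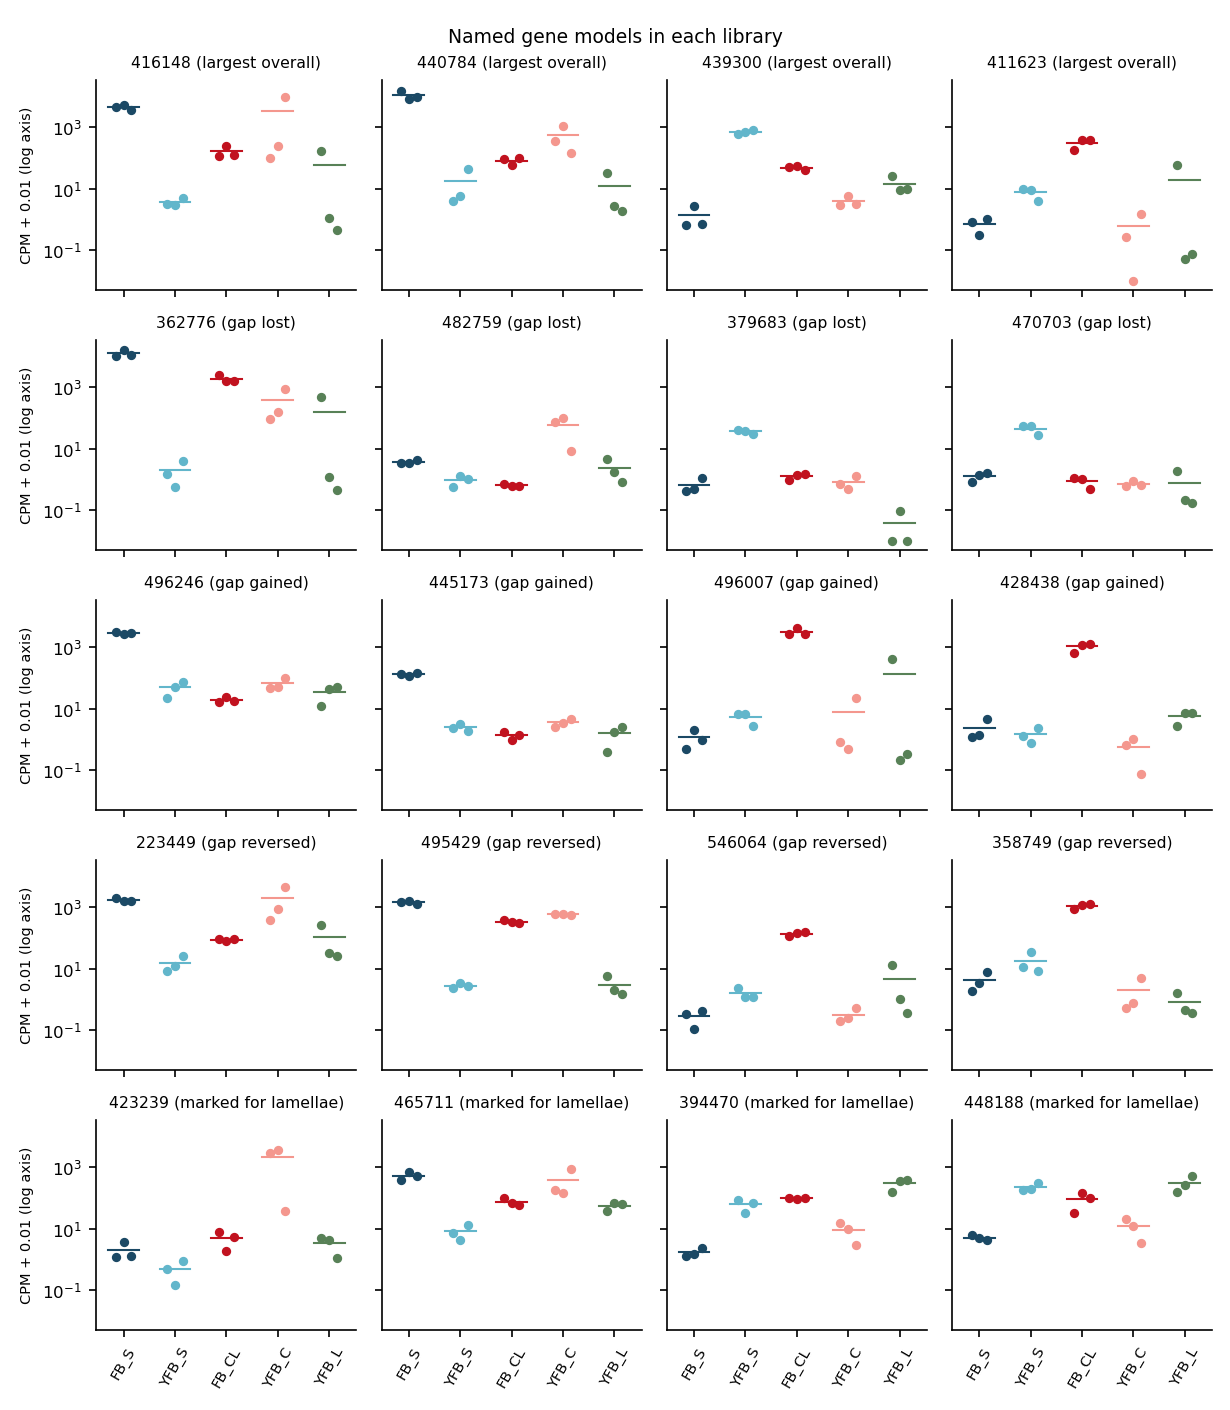
Points are single libraries, 3 per group, of the 20 named gene models, as CPM + 0.01 on a log axis, with a line at the mean of the group. Groups are the mature and young stipe (FB_S, YFB_S), the mature cap with lamellae and the young cap (FB_CL, YFB_C) and young lamellae (YFB_L), and the top row shows the 4 with the largest differences that met the naming rule.

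The mature cap was sampled with its lamellae and the young cap without them, so a gene model can appear to change in the cap because lamellae differ from cap already when young. Young lamellae and young cap differed in 5229 gene models (43.6% of those tested), 2841 higher (23.7%) and 2388 lower (19.9%) in lamellae, or 4616 and 1450 with library size alone (median shift 0.65). A called cap change was marked where the mean CPM of the mature cap lay between those of the young cap and the young lamellae, so that a mixture of the young parts would give the mature level. This held for 960 of 5768 called cap changes (16.6%), 460 of 2772 rises and 500 of 2996 falls, and for 1133 without CC_YFB_L replicate 1 and 844 without CC_YFB_C replicate 3. In the other 4808 the mean of the mature cap lay above those of both young parts (2312) or below both (2496). No mixture of these means gives the mature level, but the order of the means was not tested. In 2902 of the 4808 the lamellae lay on the same side of the young cap as the mature cap. That covers part of the distance. By the looser mark described below, 2322 called cap changes were not called beyond young lamellae.

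The mark fell on 581 of the 4498 called differences (12.9%). It fell on 149 of 588 reversed gaps (25.3%), 214 of 1283 converged (16.7%) and 184 of 2077 diverged ones (8.86%). The mark needs a called cap change, which 2776 of the 4498 had. Among these it fell on 19.3% of 1442 rises and 22.6% of 1334 falls in the cap. Classes differ in how often the cap was called, so the shares by class do not rank the classes. In 279 of the 581 the stipe itself was not called, and lamellae alone could account for the called cap change. The stipe is not thereby shown to be steady. In 251 the stipe moved against the cap. The mark fell on 711 called differences without CC_YFB_L replicate 1 and on 480 without CC_YFB_C replicate 3. The share of lamellae at which a mixture of the young parts reaches the mature level was computed for each of the 960 marked models. It had a median of 77.0% with quartiles at 52.8% and 90.2%, and a median of 50.3% among rises and 86.9% among falls. These shares take RNA per cell to be equal in both young parts, which was not measured. A looser mark, given wherever the mature cap was not called beyond young lamellae in the direction of its change, covered 2322 cap changes and 1260 called differences. Between mature cap and young lamellae 6417 gene models (53.5%) were called, the mature cap being higher in 2945 (24.6%) and lower in 3472 (29%), or 1302 and 6907 with library size alone (median shift -1.36).

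A second reading put young lamellae in place of the young cap. The difference of differences was then called in 4748 gene models (39.6% of those tested), 2506 positive (20.9%) and 2242 negative (18.7%), or 4093 and 1321 with library size alone, which moved its median by 0.70. Of the 4498 called with the young cap, 2354 (52.3%) were called with the same sign against lamellae (held), 1111 positive and 1243 negative. That was so for 1261 of 2077 diverged (60.7%), 452 of 1283 converged (35.2%) and 440 of 588 reversed gaps (74.8%). A gained gap needs a called gap between the mature parts, which both readings keep. A lost gap needs one to the young cap, which lamellae replace here. These shares follow in part from the class rules and do not rank how firm the classes are. The estimate kept its sign in 3806 of the 4498 and changed it in 692, of which 169 were called in the opposite direction. A mixed young baseline lies between the 2 baselines, so where both estimates had the same sign, that sign did not depend on the share of lamellae. The comparisons share 9 of their 12 libraries, and their overlap is no independent evidence. With the mean of cap and lamellae as the young baseline of the difference 4252 were called. By young gaps still taken against the young cap alone, 2103 of these diverged and 891 converged.

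**Figure D5:**
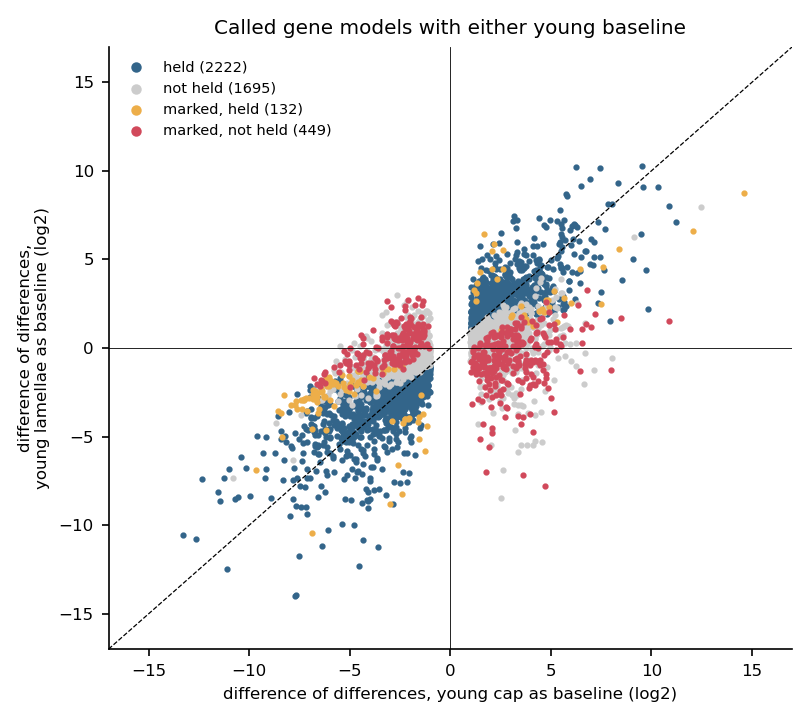
Points are the 4498 gene models with a called difference of differences, with the value for the young cap as baseline on the x axis and for young lamellae on the y axis, both log2, and a dashed line at equality. The 2222 held and unmarked and the 132 held and marked models keep sign and call (blue and yellow), the 449 marked models that were not held are red, and the other models not held are grey.

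Of the marked gene models, 423239 (1569 bases) had the largest positive difference by the naming rule after the 2 already described, and did not keep its call against lamellae. It had 1.18, 3.67 and 1.28 CPM in the mature stipe and 0.465, 0.14 and 0.884 CPM in the young stipe. It had 7.7, 1.91 and 5.26 CPM in the mature cap and 2975, 3582 and 37.1 CPM in the young cap, but 4.91, 4.26 and 1.08 CPM in young lamellae. Mature cap and young lamellae overlapped, and both were below every young cap library. Its stipe was not called, except without CC_YFB_C replicate 3, where it rose. Its difference was 10.86 ± 1.49 log2 units (SE, with an edgeR adjusted p = 3.50e-06) against the young cap, with 11.47 without CC_YFB_S replicate 3 and 10.15 without CC_FB_S replicate 2, and 1.53 ± 1.34 log2 units (SE, with an edgeR adjusted p = 0.377) against young lamellae, which did not pass. Gene model 465711 (435 bases) had 389, 686 and 534 CPM in the mature stipe and 7.27, 4.29 and 13.4 CPM in the young stipe. It had 103, 66.9 and 60.1 CPM in the mature cap and 186, 146 and 874 CPM in the young cap, with 38.4, 66.8 and 64 CPM in young lamellae. It rose in the stipe, and its difference was 8.40 ± 0.94 log2 units (SE, with an edgeR adjusted p = 2.16e-07), or 7.13 without CC_YFB_C replicate 3, without which the fall in the cap and the mark were lost. It was 5.57 ± 0.89 log2 units (SE, with an edgeR adjusted p = 2.65e-05) against lamellae.

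The 2 marked gene models with the largest negative differences that met the rule were high in young lamellae. Gene model 394470 (491 bases) had 1.26, 1.45 and 2.4 CPM in the mature stipe and 88.7, 31.8 and 70.1 CPM in the young stipe. It had 104, 90.6 and 101 CPM in the mature cap and 15.4, 10.1 and 2.87 CPM in the young cap, and 164, 370.1 and 383 CPM in young lamellae. The mature cap lay above every young cap library and below every library of lamellae. Its difference was -8.59 ± 0.67 log2 units (SE, with an edgeR adjusted p = 1.11e-09) against the young cap and -3.58 ± 0.61 log2 units (SE, with an edgeR adjusted p = 5.52e-05) against lamellae. Gene model 448188 (1993 bases) had 6.46, 4.83 and 4.24 CPM in the mature stipe and 187, 202 and 307 CPM in the young stipe. It had 32.3, 142 and 98.2 CPM in the mature cap and 20.2, 12.5 and 3.43 CPM in the young cap, and 156, 274 and 515 CPM in young lamellae. The difference was -8.40 ± 1.03 log2 units (SE, with an edgeR adjusted p = 7.11e-07) against the young cap, or -9.01 without CC_YFB_C replicate 1, and -3.69 ± 0.93 log2 units (SE, with an edgeR adjusted p = 0.00275) against lamellae. In both the stipe fell, and the call did not rest on the cap alone.

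Groups outside the comparison, vegetative mycelium (CC_VM, n = 3), secondary hyphal knots (CC_H, n = 3) and stage 1 and stage 2 primordia (CC_P1 and CC_P2, n = 4 each), show where these gene models stood before the parts were dissected. The 4498 had a median of 17.6 RPKM in stage 2 primordia, against 16.3 RPKM over all 11990, and 178 of them (3.96%) were under 1 RPKM in all 4 earlier groups, against 654 of 11990 (5.45%). Of the 4 groups compared, the stage 2 primordium was nearest in CPM to the young stipe in 32.4% of the called models and in 32.6% of all tested. By class this share was 40.5% and 31.1% of reversed gaps with the mature stipe higher and lower than the mature cap, 39.9% and 32.8% of lost gaps with the young stipe lower and higher than the young cap, and 26.7% and 29% of gained gaps with the mature stipe higher and lower.

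The named models had varied pasts. Gene model 439300, which fell in the stipe, stood at 573 ± 163 CPM in hyphal knots and 644 ± 271 CPM in stage 2 primordia, but 3.12 ± 0.472 CPM in mycelium. Gene model 416148 stood at 1677 ± 898 CPM in mycelium and 94.7 ± 68.8 CPM in stage 2 primordia. Both 428438 and 546064, which were low in the young cap, were low in these groups too. Gene model 428438 had 0.997 ± 0.547 CPM in mycelium and 0.613 ± 0.418 CPM in stage 2 primordia, and 546064 had 0.924 ± 0.266 CPM and 0.205 ± 0.0866 CPM in these groups. Gene model 379683, high in the young stipe alone, had 0.0328 ± 0.0318 CPM in mycelium and 2.71 ± 1.05 CPM in stage 2 primordia (SD, n as above).

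Few of the called gene models were close to silence. The share over all tested gene models is not given here, so the counts do not set the called ones apart. Among the 4498, 30 had no read in at least 1 of the 4 groups and 279 (6.20%) had under 10, most often in the mature cap (138) or the mature stipe (119), against 79 in the young cap and 65 in the young stipe. Their fitted differences depend on the small count added in the fit, and none of them is named. The median length of the called gene models was 1360 bases, against 1320 bases over all tested, and their median highest level among the 4 groups was 50.4 RPKM against 32.2 RPKM, where low levels also leave less chance of a call.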

How the data were processed

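Polyadenylated RNA was made into libraries with a TruSeq kit, per the labels' protocols. That kit does not mark strand, so a gene and an antisense partner share their reads. The deposited files hold, per the file headers, total and unique read counts per gene model and TPM, laid out like CLC output. The TPM values were read and not tested. A deposited table of log2 RPKM for 12003 gene models was also used. The submitters' processing notes name limma 3.18.13, edgeR 3.4.2 and R 3.0.2, with no role. An aligner version and an assembly: not given in the sources used here.

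Total counts were fitted with edgeR 4.0.16 in R 4.3.3, by its quasi-likelihood method in 1 model of the 9 groups over all 29 libraries, after filterByExpr (11990 of 14242 gene models kept) and TMM scaling. Each comparison is a contrast of that model, with Benjamini-Hochberg adjustment over all gene models tested. SEs are approximate, derived from each log2 value and its F statistic. Log2 CPM for distances used a prior count of 2. The fit was also run on simulated counts in which only the mature stipe was changed and no library stood apart. Its outcome is not given here.

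Gene models were named by a rule: the 2 largest positive and the 2 largest negative differences among all called, lost, gained, reversed and marked gene models in turn, passing over those already named. They had to be called in every fit leaving out 1 of the 12 libraries, reach 10 RPKM in the highest group and hold 10 reads in each group, and all but the marked ones had to be called against lamellae. The members, classes and rule were chosen with earlier results of these data known.

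Alternatives were DESeq2 1.42.0, limma 3.58.1 on log2(RPKM + 1) and log2(RPKM + 0.1), scaling by library size alone or by RLE, no filter or 10 CPM in 3 libraries, unique reads, the replicate number as a block, only the 5 groups, the first flow cell (26 libraries, which hold all 15 used here), a 4-fold or no minimum change, another baseline or mark, and leaving out each library.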

Additional observations from a re-analysis of the deposited data

Results flagged for a closer look

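The change from young to mature libraries differed between stipe and cap in 4498 gene models, by the test of the difference itself. It is the result described above, and the cap was sampled with lamellae only when mature. The named gene models met the same test. In the mature minus young stipe relative to the mature minus young cap, the log2 difference was 14.63 for 416148, 12.05 for 440784, 11.25 for 223449, 10.86 for 423239, 10.33 for 362776, 9.83 for 495429, 8.53 for 482759, 8.40 for 465711, 7.67 for 496246 and 7.17 for 445173. It was -12.67 for 439300, -12.36 for 411623, -11.24 for 546064, -11.13 for 358749, -11.00 for 496007, -10.18 for 428438, -8.59 for 394470, -8.40 for 448188, -6.38 for 379683 and -5.52 for 470703. They were named for their size, so the sizes are no sample of the rest. With 3 libraries a group, no test for single outlying values was run beyond the default filter of DESeq2.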

How the results depend on the processing

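Of the 399 recomputed counts and distances, 383 stayed within 1.5 times their value or, for the distance, within the spread of the young pairs and kept their direction. That spread, 0.166, exceeds the reported distance gain of 0.0963, so the distance could hardly fail. For the distance by Spearman correlation only the direction was compared. A 4-fold minimum lowered all counts, as it is stricter by construction: 2718 called differences (1350 positive, 1368 negative), 659 converged, 1144 diverged, 168 reversed, 2832 stipe and 2925 cap changes, 1710 young and 2281 mature gaps, 405 marked cap changes, 244 marked differences and 1246 held against lamellae. Without a minimum fold 896 gaps were reversed. The looser mark gave 2322 cap changes and 1260 differences. Leaving out 1 library gave 4032 to 4862 called differences, 1063 to 1412 converged, 1882 to 2215 diverged, 496 to 653 reversed, 480 to 711 marked, 2112 to 2463 held, and a distance gain of 0.0356 to 0.199. Calls shared in sign with the 4498 reported numbered 4461 with DESeq2, 4048 with limma on log2(RPKM + 1), 4024 with library size alone and 3845 with only the 5 groups, and 0 were called in the opposite direction in the 30 settings that keep the young cap as baseline. The replicate numbers gave no steady sign of pairing. In their deviations 1 of 18 same-numbered pairs correlated over 0.1, and 1 of 12 libraries correlated best with its own number. That pair was replicate 1 of young stipe and young cap, at r = 0.399, against -0.289 and -0.138 for replicates 2 and 3. With 3 libraries a group such deviations have little power, so pairing was not settled. With the replicate block 4448 differences were called, 1268 converged and 2078 diverged. The 20 named differences were called in each of those settings that gave an adjusted p. The naming rule already required this in the reported fit and in the 12 fits leaving out a library of the 4 groups. Those fits could not fail and are no test of the named models. DESeq2 gave no adjusted p for 411623 and 496007. Its default filter withholds p-values where a single count is extreme, and whether that applied here was not recorded. Depth limits gene models with few reads, and with 3 libraries a group a gap that was not called may still exist.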
